A study of Mus musculus with 24 samples.

Results

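The effect of an inhibitor of Bruton's tyrosine kinase (BTKi) was measured in mouse corpus callosum as the equal-weight average of its effect in healthy and in demyelinated tissue. Bulk RNA sequencing had been done on 8 libraries of naive mice, 4 given vehicle and 4 given BTKi, and on 16 libraries of mice fed cuprizone, 8 given vehicle and 8 given BTKi after disease had begun, and all 24 were used. The average was taken of naive BTKi minus naive vehicle and cuprizone BTKi minus cuprizone vehicle, on the scale log2(FPKM + 0.5), over the 15216 genes with a mean of at least 0.5 FPKM. FPKM is the number of sequenced fragments of a gene, scaled to its length and to the fragments of the whole library. No gene was left out beyond that limit on the mean. The 8 naive and 16 cuprizone libraries do not overlap, so each state gave its own estimate of the drug effect, with the spread pooled over all groups. The labels name neither the compound nor its dose, route, duration or the strain, age and sex of the mice, and do not say that every library came from its own animal. The p-values therefore measure the spread between these libraries, which may in part be technical.

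BTK is a cytoplasmic kinase best known from B cells, where it links the B cell receptor to phospholipase C gamma, calcium and the MAP kinase and NF-kappaB pathways. In the brain it is found chiefly in microglia, the resident macrophages, where Fc receptors and the adaptor kinase Syk lie upstream of it. Cuprizone, a copper chelator given in food, kills oligodendrocytes, and the corpus callosum, a white matter tract, is the region where the loss of myelin is usually studied.

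BTKi had a small averaged effect, and genes called in 1 state had, as a set, little of the same change in the other. In the average several quickly induced response genes were lower, and a smaller set that includes Nostrin, Zbtb16, Per2 and Dio2 was higher. With limma and Benjamini-Hochberg adjustment at 0.05, 53 of 15216 genes (0.348%) were called for the averaged effect, 36 lower (0.237%) and 17 higher (0.112%) under BTKi. A called gene is one that passed that threshold. The largest called change, in the noncoding transcript 1700016P03Rik, was a log2 difference of -0.83, so none reached a factor of 2 on this scale. The split into lower and higher depended on the scaling of the libraries: median ratio scaling gave 81 calls, 36 lower and 45 higher, and quantile normalization gave 52, 18 lower and 34 higher. The median difference over all tested genes was -0.02, and 9305 of 15216 were below 0. By level, the median was -0.044 at a mean of 0.5 to 1 FPKM, -0.048 at 1 to 2 FPKM and 0.0038 at 50 FPKM and over. Each of the 53 genes had the same direction under both scalings.

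**Figure D1:**
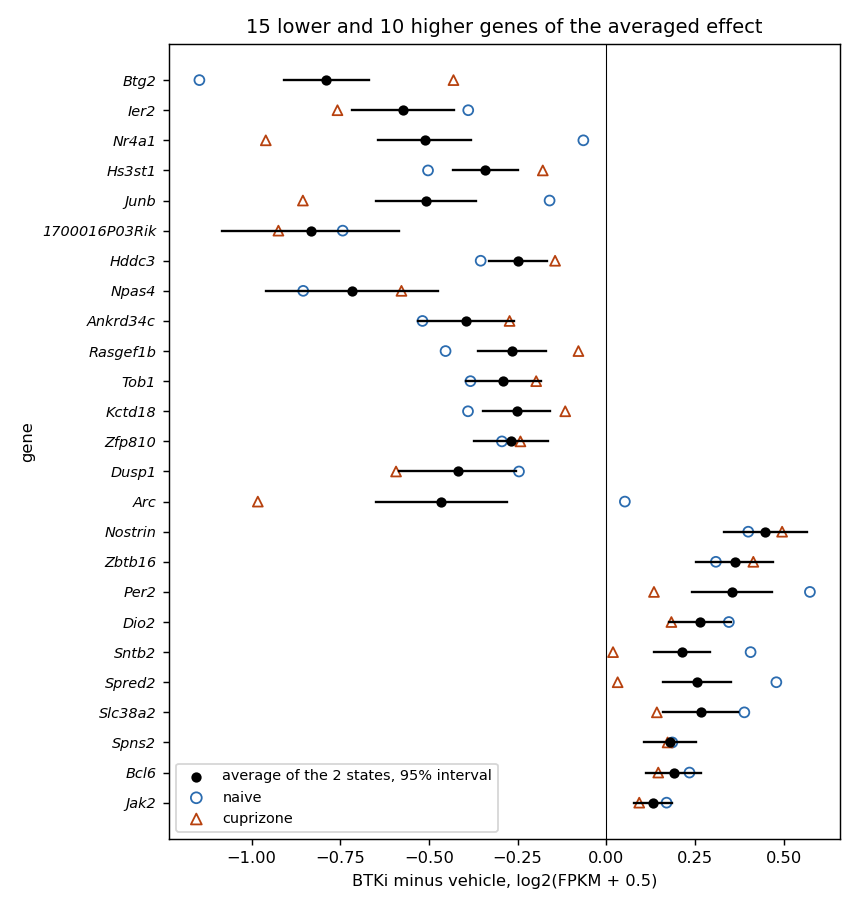
BTKi minus vehicle on the log2(FPKM + 0.5) scale for the 15 lower and 10 higher called genes with the smallest p. Black points are the average of the 2 states with its 95% interval, blue circles the naive value and orange triangles the cuprizone value. Btg2, at -0.79, has the smallest p, and 1700016P03Rik, at -0.83, the largest average. The naive values are -0.06 in Nr4a1, -0.16 in Junb and 0.05 in Arc.

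Of 5 measures of library quality, the number of genes detected differed with the drug. At a level of 0.5 FPKM or more, 14930 to 15078 genes were detected in naive BTKi against 15074 to 15236 in naive vehicle, and 15076 to 15288 in cuprizone BTKi against 15112 to 15435 in cuprizone vehicle. The averaged difference was -115.9 genes (exact permutation of the drug labels within each state, 900900 permutations, two-sided p = 0.005102, adjusted over 5 measures p = 0.02551), with the same sign in both states. The other 4 measures (total FPKM and the percent of it from mitochondrial, haemoglobin and the 10 most abundant genes) gave adjusted p from 0.7466 to 0.8018. Fragment totals implied by the smallest steps of the values were 26.5 to 31.0 in units of 1000000. Tissue neighbouring the corpus callosum was present in uneven amounts. The summed FPKM of 10 choroid plexus genes ran from 32.32 to 2568, with 3 cuprizone vehicle libraries at the bottom, and that of 8 striatal genes from 121 to 672.1, highest in naive vehicle library 2. The part that these amounts play in the results was not tested beyond leaving those libraries out.

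Among the 53 called genes, 52 had the same sign in both states, the exception being Arc. In 38 of them (25 lower, 13 higher) the unadjusted limma p was under 0.05 in each state separately, in 11 it was so in naive mice only, and in 4 (Nr4a1, Junb, Dusp1 and Arc) in cuprizone mice only. These counts describe genes that the average itself selected, and in all tested genes 191 met the same double condition. The estimate was larger in naive mice for 40 of the 53, a count that was not made over all tested genes. Naive groups had 4 libraries against 8, so naive estimates vary more, and the count does not show a stronger naive response. Naive BTKi and naive vehicle libraries did not overlap in 38 of the 53, against 7.36% of all tested genes, and the cuprizone groups in 10, against 0.131%. Selection of the 53 by the same libraries by itself raises both shares. Only 4 of the 53 had no overlap in either state: Btg2, Ier2, Nostrin and Trim45. That count was not made over all tested genes, of which 20 had no overlap in the cuprizone groups.

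Because the states share no library, the estimates of genes called in 1 state could be read in the other. The fit gave each gene 1 spread over the 4 groups, so a p in the other state was not independent of the choice. In cuprizone mice 27 genes (0.177%) were called, and in naive mice 16 of these 27 (59.3%) had the same sign, against 51.9% of all tested genes. Among these 27, 8 also had an unadjusted naive p under 0.05 in the same direction, namely Btg2, Ier2, Nostrin, Zbtb16, 1700016P03Rik, Wnt9a, Trim45 and Mterf1b, and 4 had one in the opposite direction. Over all tested genes 7.29% had such a naive p with the same sign as in cuprizone mice, and 12.6% had one in either direction. In naive mice 33 genes (0.217%) were called, of which 19 (57.6%) had the same sign in cuprizone mice. Among those 33, 8 had an unadjusted cuprizone p under 0.05 in the same direction, namely Btg2, Hs3st1, Per2, Hddc3, Dio2, Ankrd34c, Kctd18 and Slc38a2, and 5 had one in the opposite direction. Over all tested genes the share with the same sign was 5.34%, and 8.79% in either direction. Btg2 stood on both of these lists. The log2 difference in the other state was divided by that in the state of the call. The median of this ratio was 0.0675 for the 27 genes and 0.0463 for the 33. Choice of the genes by their own state by itself makes the ratio smaller.

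**Figure D2:**
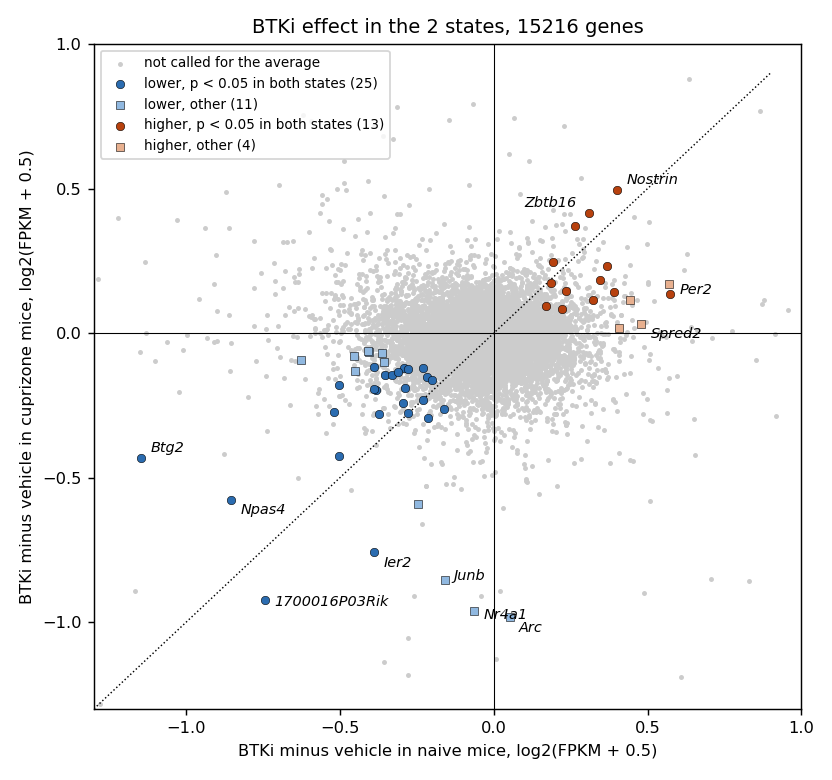
Each point is a gene, placed by BTKi minus vehicle in naive mice (x) and in cuprizone mice (y), both as log2(FPKM + 0.5) differences; 18 genes lie outside the axes. Called genes are coloured by direction, with circles for the 38 that had an unadjusted p under 0.05 in both states, and the dotted line marks equal effects; Btg2, Npas4, Ier2 and 1700016P03Rik lie low on both axes, and Arc, Nr4a1 and Junb low on the cuprizone axis only.

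The gene with the smallest p was Btg2 (ENSMUSG00000020423.6, chr1:134075170-134079120, minus strand, GRCm38), an antiproliferative protein that promotes the removal of poly(A) tails from messenger RNA and is induced within minutes by growth factors and DNA damage. In naive vehicle its 4 libraries had 11.0, 12.5, 14.6 and 11.6 FPKM, and in naive BTKi 5.18, 5.28, 5.25 and 5.49. In cuprizone vehicle it ran from 5.84 through a median of 6.78 to 7.76 FPKM, and in cuprizone BTKi from 4.21 through 5.05 to 5.49. All BTKi libraries were below all vehicle libraries of their state, and the naive vehicle libraries were above all others. The averaged log2 difference was -0.79 (SE 0.06, 95% interval -0.91 to -0.67, limma adjusted p = 9e-09). Its value was -1.15 in naive and -0.43 in cuprizone mice, and that gap was itself called (0.72, 95% interval 0.48 to 0.95, adjusted p = 0.00543).

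Ier2 (ENSMUSG00000053560.4, chr8:84661331-84662852, minus strand), a nuclear protein of the immediate early class, had 10.1, 8.92, 11.3 and 9.31 FPKM in naive vehicle and 7.03, 7.47, 6.96 and 8.26 in naive BTKi. In cuprizone vehicle the lowest, median and highest libraries were 6.97, 9.12 and 11.5 FPKM, and in cuprizone BTKi 4.60, 5.01 and 6.00. The groups did not overlap in either state, and cuprizone BTKi was below every other library. Its averaged log2 difference was -0.57 (SE 0.07, limma adjusted p = 0.000124), from -0.39 in naive and -0.76 in cuprizone mice. The gap between the states of -0.37 (95% interval -0.66 to -0.08) did not pass adjustment (adjusted p = 0.41).

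Npas4, a transcription factor of neurons that is switched on by calcium entry, was also called lower. Its naive vehicle libraries had 16.3, 14.2, 15.1 and 10.7 FPKM and its naive BTKi libraries 10.9, 7.28, 7.14 and 5.43. The cuprizone vehicle libraries ran from 5.84 through 8.47 to 10.0 FPKM and the cuprizone BTKi libraries from 3.92 through 5.40 to 7.28. The groups overlapped slightly in each state. The averaged log2 difference was -0.72 (SE 0.12, limma adjusted p = 0.00321), with -0.85 in naive and -0.58 in cuprizone mice and a gap of 0.28 (95% interval -0.21 to 0.76).

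The noncoding transcript 1700016P03Rik (ENSMUSG00000085609.1, chr11:75172560-75177633, plus strand, GRCm38) had the largest averaged difference of the called genes. Its naive vehicle libraries had 5.55, 3.14, 4.69 and 3.40 FPKM and its naive BTKi libraries 3.17, 1.95, 2.45 and 1.64. The cuprizone vehicle libraries ran from 1.94 through 2.65 to 4.02 FPKM and the cuprizone BTKi libraries from 0.870 through 1.16 to 1.86, with no overlap. The log2 difference was -0.83 (SE 0.12, limma adjusted p = 0.000742), -0.74 in naive and -0.92 in cuprizone mice, with a gap of -0.18 (95% interval -0.68 to 0.32). Its span holds the precursors of miR-212 and miR-132, a pair of microRNAs known to be induced by neuronal activity, which is why their mature sequences (RefSeq, GRCm38.p6) are shown, with the seed at bases 2 to 8 in capitals.
mmu-miR-212-3p: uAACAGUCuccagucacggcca
mmu-miR-132-3p: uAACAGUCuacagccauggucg
The first lies at chr11:75173443-75173464 and the second at chr11:75173723-75173744, both on the plus strand, and they share the seed AACAGUC. Mature microRNAs are not captured by a polyadenylated RNA library, so neither was measured here.

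Nr4a1, Junb, Arc and Dusp1 were also called lower, but in naive mice none of them had an unadjusted p under 0.05. Nr4a1, an orphan nuclear receptor, had 66.4, 57.0, 68.1 and 53.4 FPKM in naive vehicle and 63.2, 56.0, 57.0 and 57.0 in naive BTKi, which overlap. Its cuprizone vehicle libraries ran from 54.5 through 62.0 to 72.2 FPKM and its cuprizone BTKi libraries from 26.8 through 32.6 to 40.2, below every other library. The average of -0.51 (limma adjusted p = 0.000125) joined -0.06 in naive and -0.96 in cuprizone mice, and the gap of -0.90 was called (adjusted p = 0.00187).

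Junb, a component of the transcription factor AP-1, had 51.8, 49.8, 52.4 and 40.6 FPKM in naive vehicle and 47.9, 41.3, 40.8 and 43.5 in naive BTKi. It ran from 41.6 through 49.0 to 65.1 FPKM in cuprizone vehicle and from 24.3 through 27.7 to 32.8 in cuprizone BTKi, again below every other library. Its gap of -0.70 between the states was called (limma adjusted p = 0.0305), and the average was -0.51 (adjusted p = 0.000262). Arc, a synaptic protein that regulates glutamate receptors, had 123, 106, 122 and 103 FPKM in naive vehicle and 127, 116, 117 and 111 in naive BTKi. In cuprizone mice Arc ran from 101 through 127 to 160 FPKM under vehicle and from 48.6 through 60.6 to 91.0 under BTKi. The naive log2 difference of Arc was 0.05 and the cuprizone difference -0.98, a called gap of -1.03 (adjusted p = 0.0103), so the average of -0.47 does not describe naive tissue. Dusp1, a phosphatase that switches off MAP kinases, had -0.25 in naive and -0.59 in cuprizone mice (average -0.42, limma adjusted p = 0.016), and its gap of -0.35 was not called (95% interval -0.68 to -0.02, adjusted p = 0.498).

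**Figure D3:**
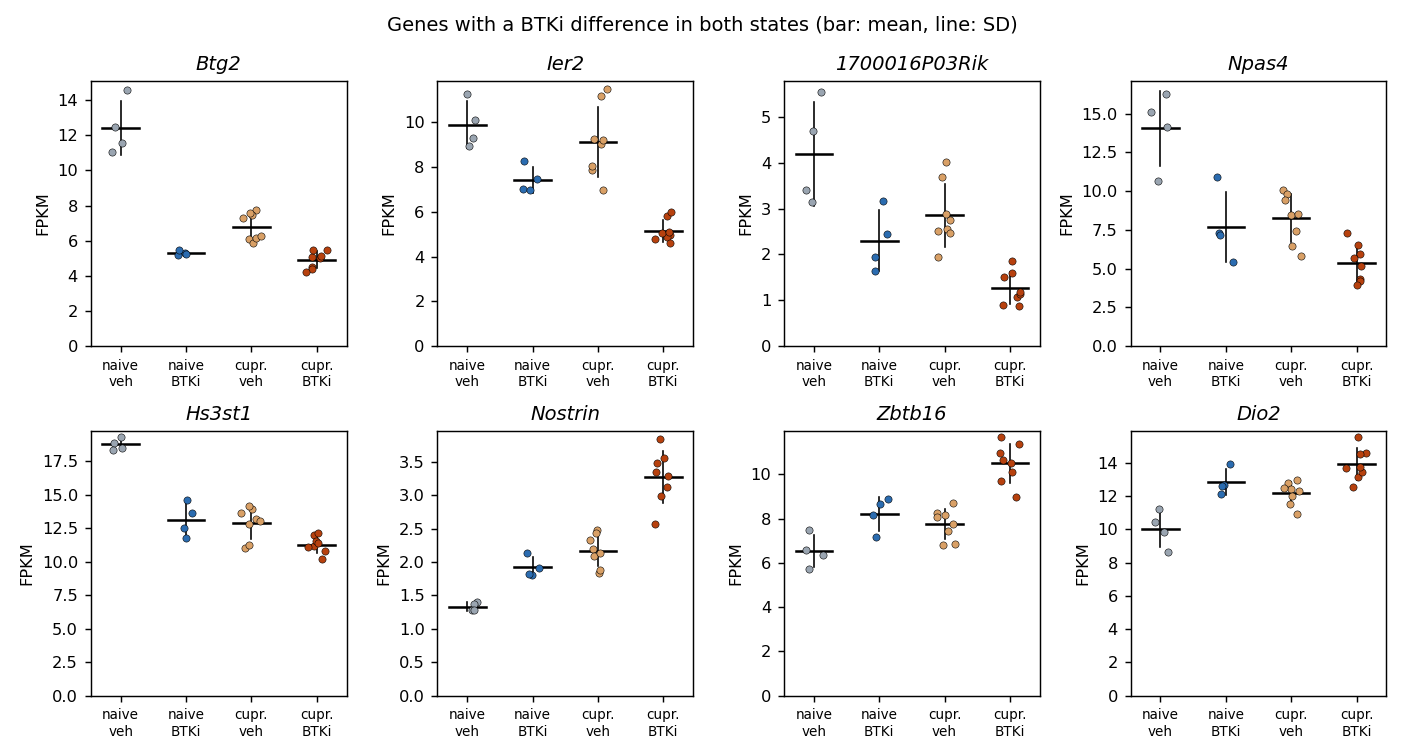
FPKM of 8 called genes in each library, in 4 libraries of each naive group and 8 of each cuprizone group (bar: mean, line: SD), each axis from 0. Btg2, Ier2, 1700016P03Rik, Npas4 and Hs3st1 are lower under BTKi in both states, and Nostrin, Zbtb16 and Dio2 higher.

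Set against their families, the early response genes did not fall as a block. Of 22 rapid response regulators tested, Btg2 and Ier2 were called for the average and no other. At an unadjusted p under 0.05, 7 were lower and 4 higher (all genes: 1390 lower and 555 higher of 15216), with a median of -0.0586. Of 8 Fos and Jun family genes only Junb was called, and Fos itself, at 21.0 ± 2.35 against 14.4 ± 2.09 FPKM in cuprizone mice (SD, n = 8 each) and 18.8 ± 1.90 against 17.4 ± 1.80 in naive mice (n = 4 each), missed the threshold with -0.32 (limma adjusted p = 0.0513). None of 6 Egr and Nab genes was called, Egr1 having 0.02 on average with -0.20 in cuprizone and 0.23 in naive mice. Of 13 neuronal activity effectors Npas4 and Arc were called, while Homer1, a postsynaptic scaffold, had 0.29 and Pcsk1, a prohormone convertase, 0.23 (limma adjusted p = 0.119 and 0.27). Of 12 inhibitors that feed back on ERK signalling, Dusp1 was called lower and Spred2 higher. The other Spred members, Spred1 at 0.23 and Spred3 at 0.13, missed the threshold (adjusted p = 0.0563 and 0.0995). By state, 5 of the 22 rapid response regulators were called lower and 0 higher in cuprizone mice (all genes: 21 and 6). In naive mice 1 was called lower and 2 higher (all genes: 17 and 16). The difference between the states was called in 3 of the 22 (all genes: 19).

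The regions before the start sites of 4 called genes are shown because CRE, the palindrome TGACGTCA bound by CREB proteins, is the usual calcium and cyclic AMP element of activity-induced genes. They are the 250 bases before each RefSeq start site (GRCm38.p6), written 5′ to 3′ on the gene's strand, with CRE and its core TGACG, on either strand, in capitals.
Btg2: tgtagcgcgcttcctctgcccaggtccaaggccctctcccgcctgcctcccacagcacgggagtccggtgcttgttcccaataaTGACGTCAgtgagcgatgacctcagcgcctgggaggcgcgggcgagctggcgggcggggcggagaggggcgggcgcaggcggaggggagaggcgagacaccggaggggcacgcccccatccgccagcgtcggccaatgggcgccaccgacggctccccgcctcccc
Dusp1: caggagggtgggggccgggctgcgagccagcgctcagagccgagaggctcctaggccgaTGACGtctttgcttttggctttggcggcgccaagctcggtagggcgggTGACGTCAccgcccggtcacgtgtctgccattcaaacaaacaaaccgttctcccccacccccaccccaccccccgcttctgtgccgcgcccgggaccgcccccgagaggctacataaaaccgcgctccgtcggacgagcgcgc
Npas4: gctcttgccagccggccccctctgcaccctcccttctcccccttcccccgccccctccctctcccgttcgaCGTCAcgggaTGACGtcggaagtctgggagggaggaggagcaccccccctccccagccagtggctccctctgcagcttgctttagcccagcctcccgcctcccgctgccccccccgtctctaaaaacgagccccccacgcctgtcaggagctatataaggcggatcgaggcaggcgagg
Dio2: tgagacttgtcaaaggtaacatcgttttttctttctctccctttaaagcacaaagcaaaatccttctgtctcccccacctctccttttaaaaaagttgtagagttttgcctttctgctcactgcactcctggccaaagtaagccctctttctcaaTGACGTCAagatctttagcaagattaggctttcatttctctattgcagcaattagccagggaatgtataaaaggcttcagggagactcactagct
They lie at chr1:134079156-134079405, chr17:26508473-26508722, chr19:4989972-4990221 and chr12:90739039-90739288, all on the minus strand, and CRE begins at -166 in Btg2, -143 in Dusp1 and -95 in Dio2. A promoter window (300 bases, 250 before and 50 after the start) was matched for 37 of the 53 called genes. CRE was present in 2 of 27 lower genes (Btg2 and Dusp1) and 2 of 10 higher genes (Dio2 and Mterf1b), against 1.79% of 32851 promoters, so genes of both directions held it. Its core TGACG, which every CRE also contains, was in 10 of 27 lower and 8 of 10 higher genes against 20.8% of promoters. The AP-1 element TGANTCA was in 2 of 27 and 0 of 10 (7.81% of promoters), the E-box CACGTG in 2 of 27 and 1 of 10 (7.15%), and the CArG box of serum response factor in none (1.63%), all searched on both strands. The 32851 promoters were not limited to expressed genes or to 1 per gene, as the called genes were, so the shares are not of like sets. These matches describe the letters in the windows only.

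Among the other lower genes, Hs3st1 (chr5:39613935-39755475, minus strand), a sulfotransferase that modifies heparan sulfate, had the smallest p. Its naive vehicle libraries had 18.5, 18.8, 19.3 and 18.4 FPKM and its naive BTKi libraries 11.7, 14.6, 13.6 and 12.5. In cuprizone mice it ran from 11.0 through 13.1 to 14.1 FPKM under vehicle and from 10.2 through 11.3 to 12.1 under BTKi, with overlap. The averaged difference was -0.34 (SE 0.04, limma adjusted p = 0.000166), -0.50 in naive and -0.18 in cuprizone mice. Tob1, an antiproliferative relative of Btg2, was lower in both states (naive -0.38, cuprizone -0.20, average -0.29, limma adjusted p = 0.00757). Its naive vehicle libraries had 20.8, 22.5, 19.6 and 18.2 FPKM against 15.3, 17.3, 14.0 and 15.1 in naive BTKi, with no overlap.

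Hddc3, a hydrolase of the stringent-response type, had an average of -0.25 (limma adjusted p = 0.00248), and Ankrd34c, an ankyrin repeat protein, -0.40 (adjusted p = 0.0034). Hddc3 had 14.8, 13.8, 12.9 and 13.5 FPKM in naive vehicle and 10.8, 11.5, 10.5 and 9.81 in naive BTKi. Other lower genes with an unadjusted p under 0.05 in both states include Kctd18, Zfp810, Cstad, the polymerase Poli, the zinc finger proteins Zfp446 and Zkscan2, the factor Klf7, the Integrator subunit Ints2, the lysosomal enzyme Idua, the ligand Wnt9a, the kinase Map3k1, the helicase Rtel1 and the iron exporter Slc40a1. Their averaged log2 differences ran from -0.47 in Cstad to -0.18 in Poli and Klf7. Of the 24 fits without 1 library, Slc40a1 was called in only 7 and Rtel1 in 19. Rasgef1b, an exchange factor for Ras-like proteins, was called at -0.27, with -0.45 in naive and -0.08 in cuprizone mice, a gap that was not called (adjusted p = 0.149).

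Nostrin (ENSMUSG00000034738.8, chr2:69135800-69189330, plus strand), an adaptor that brings endothelial nitric oxide synthase into the cell and is expressed in blood vessel walls, had the smallest p of the higher genes. It had 1.41, 1.37, 1.28 and 1.28 FPKM in naive vehicle and 1.92, 2.13, 1.81 and 1.82 in naive BTKi. In cuprizone vehicle it ran from 1.83 through 2.17 to 2.49 FPKM and in cuprizone BTKi from 2.56 through 3.31 to 3.84. Neither pair of groups overlapped, and the naive vehicle libraries were below and the cuprizone BTKi libraries above all others. The averaged difference was 0.45 (SE 0.06, limma adjusted p = 0.000125), 0.40 in naive and 0.50 in cuprizone mice, a gap of 0.10 (95% interval -0.14 to 0.33).

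Adgrl4, an adhesion receptor, was higher by 0.22 (limma adjusted p = 0.0314), and Sox18, a vascular transcription factor, by 0.30 (adjusted p = 0.0391). Both were picked out after their values were seen, and of the 24 fits without 1 library Adgrl4 was called in 17 and Sox18 in 10. Spns2, the transporter that releases sphingosine-1-phosphate, was higher by 0.18 (adjusted p = 0.0173), with 0.19 in naive and 0.17 in cuprizone mice. None of 10 general endothelial markers was called, 5 of them were below 0, and the 1 with an unadjusted p under 0.05 was lower. Their median was 0.0124, and their summed level was 124.2 to 130.5 FPKM in naive vehicle, 123.1 to 137.6 in naive BTKi, 121.3 to 144.9 in cuprizone vehicle and 122.7 to 149.9 in cuprizone BTKi. The marker sums overlapped between all groups.

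Zbtb16 (ENSMUSG00000066687.5, chr9:48654297-48836222, minus strand), a transcriptional repressor whose gene is a classic target of the glucocorticoid receptor, was higher in both states. Its libraries had 6.38, 5.72, 6.56 and 7.49 FPKM in naive vehicle and 7.16, 8.14, 8.64 and 8.88 in naive BTKi, which overlap. In cuprizone mice it ran from 6.78 through 7.92 to 8.69 FPKM under vehicle and from 8.99 through 10.6 to 11.7 under BTKi, above every other library. The average was 0.36 (SE 0.05, limma adjusted p = 0.000742), 0.31 in naive and 0.41 in cuprizone mice (gap 0.11, 95% interval -0.11 to 0.32). Of 12 glucocorticoid target genes tested, Zbtb16 was the only one called. With it, Map3k6 (0.31), the kinase Sgk1 (0.24), the cochaperone Fkbp5 (0.13) and the NF-kappaB inhibitor Nfkbia (0.12) had an unadjusted p under 0.05, all higher, with adjusted p of 0.065, 0.225, 0.216 and 0.36, and no gene of the list did so in the lower direction. Over all 15216 genes 555 had such a p in the higher and 1390 in the lower direction, and 17 were called higher. The list's median was 0.0607. Median ratio scaling and quantile normalization each gave 2 of the 12 called higher and 5 higher at an unadjusted p under 0.05. All tested genes then had 1046 and 992 higher at such a p, against 913 and 764 lower.

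Dio2, the deiodinase that makes active thyroid hormone and in brain is an enzyme of astrocytes, had 11.2, 8.62, 10.5 and 9.87 FPKM in naive vehicle and 12.7, 12.1, 14.0 and 12.6 in naive BTKi, with no overlap. It ran from 10.9 through 12.4 to 13.0 FPKM in cuprizone vehicle and from 12.5 through 13.7 to 15.6 in cuprizone BTKi. The averaged difference was 0.26 (SE 0.04, limma adjusted p = 0.0025), 0.35 in naive and 0.18 in cuprizone mice. Slc38a2, a transporter of neutral amino acids, was higher by 0.27 (adjusted p = 0.016; 0.39 naive, 0.14 cuprizone). Bcl6, a transcriptional repressor, was higher by 0.19 and the kinase Jak2 by 0.13 (adjusted p = 0.0173 and 0.0191). The gap between the states was -0.09 for Bcl6 (95% interval -0.24 to 0.07) and -0.08 for Jak2 (-0.19 to 0.03).

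Per2, a repressor of the circadian clock, showed a larger naive than cuprizone value. Its naive vehicle libraries had 6.18, 5.73, 6.42 and 6.51 FPKM and its naive BTKi libraries 9.90, 9.11, 9.47 and 9.44. In cuprizone vehicle it ran from 7.67 through 8.91 to 10.1 FPKM and in cuprizone BTKi from 8.47 through 9.45 to 11.7. The average was 0.35 (limma adjusted p = 0.00157), from 0.57 in naive and 0.13 in cuprizone mice, and the gap of -0.44 missed the threshold (adjusted p = 0.143). Of 20 clock genes no other was called. At an unadjusted p under 0.05, 4 of the 20, Per2 included, were higher and 1 was lower (all genes: 555 higher and 1390 lower of 15216), and the list had a median of -0.00789. The naive BTKi level of Per2 lay within the range of both cuprizone groups.

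In several genes naive vehicle stood apart from the other 3 groups. In 14 of the 53 called genes (26.4%, against 1.34% of all tested genes) the 4 naive vehicle libraries were all above or all below every one of the other 20. Such genes include Btg2, Hs3st1, Ankrd34c, Rasgef1b and Klf7 among the lower and Per2, Spred2, Sntb2, Slc38a2 and Jak2 among the higher. Sntb2, a syntrophin of the dystrophin complex, had 2.24, 2.30, 2.57 and 2.41 FPKM in naive vehicle and 3.09, 3.64, 3.19 and 3.34 in naive BTKi. It ran from 3.06 through 3.21 to 3.56 FPKM in cuprizone vehicle and from 3.05 through 3.37 to 3.52 in cuprizone BTKi. The gap between the states was called for Sntb2 (-0.39, limma adjusted p = 0.0305) but not for Spred2 (-0.45, adjusted p = 0.0568), which had 21.2, 20.0, 20.8 and 24.3 FPKM in naive vehicle and 28.2, 30.7, 32.7 and 29.4 in naive BTKi. All naive BTKi libraries stood apart in this way in 4 called genes (0.25% of all tested genes) and all cuprizone BTKi libraries in 6 (0.046%). The called genes were selected by the average of these same libraries, which by itself raises such shares above those of all tested genes.

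**Figure D4:**
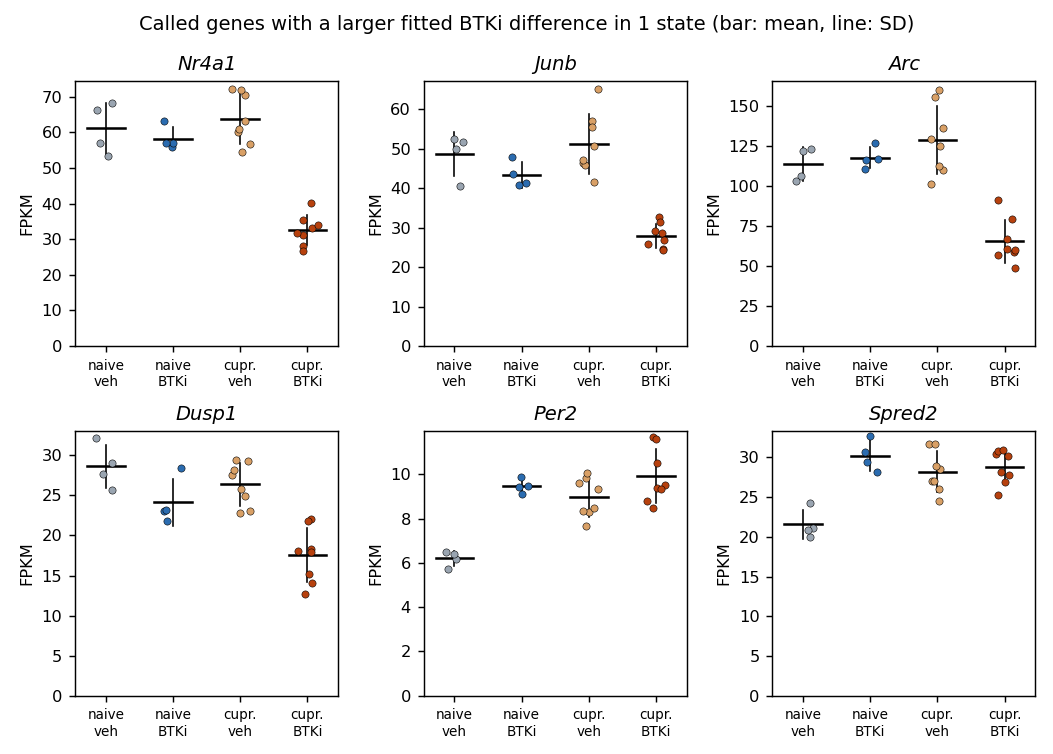
FPKM of 6 called genes whose fitted BTKi difference was larger in 1 state, by library and group (bar: mean, line: SD), each axis from 0. Nr4a1, Junb, Arc and Dusp1 are low in cuprizone BTKi; Per2 and Spred2 are low in naive vehicle. The gap between the states was called for Nr4a1, Junb and Arc and not for Dusp1, Per2 and Spred2.

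For the kinase itself and its cascade no averaged difference was called. Btk had 0.356, 0.351, 0.356 and 0.272 FPKM in naive vehicle, 0.368, 0.295, 0.256 and 0.468 in naive BTKi, 0.986 ± 0.385 in cuprizone vehicle and 0.787 ± 0.238 in cuprizone BTKi (SD, n = 8 each). Its averaged log2 difference was -0.09 (95% interval -0.31 to 0.14, limma adjusted p = 0.793). As the drug acts on the protein, the transcript does not report on its activity. None of 16 genes of the BTK cascade was called (median -0.000481), among them the upstream kinases Syk (0.00 on average, 95% interval -0.19 to 0.18) and Lyn (-0.12, -0.34 to 0.09), the substrate Plcg2 (0.02, -0.18 to 0.21) and the adaptor Blnk (0.06, -0.12 to 0.24). Prkcd, a protein kinase C, had the widest value, -0.72 (SE 0.27, adjusted p = 0.257). In naive vehicle Prkcd had 16.1, 130, 21.6 and 25.3 FPKM, library 2 being the one with the highest summed striatal level, and in naive BTKi 7.39, 15.7, 13.8 and 13.2. Without naive vehicle library 2 the averaged value of Prkcd was -0.39 (SE 0.20, unadjusted p = 0.0648, limma adjusted p = 0.494). None of 6 Fc receptor genes was called, with averaged differences between -0.18 and 0.11. Leaving out the 3 cuprizone vehicle libraries low in choroid plexus RNA moved the Fc receptor median from -0.06 to -0.201 (5 of 6 below 0). The cascade median then moved from -0.000481 to -0.0747, with 12 of 16 below 0 against 8. Over all tested genes 9626 of 15216 were below 0 in that fit, against 9305. No gene of either list was called there.

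In bulk tissue, fewer cells of a type and less RNA per cell cannot be told apart, and this applies to every cell type list. None of 24 mature oligodendrocyte and myelin genes was called. Their median was -0.0679, made of -0.318 in naive and 0.183 in cuprizone mice, and their summed level was 4514 to 6294 FPKM in naive vehicle, 3870 to 4205 in naive BTKi, 1619 to 2620 in cuprizone vehicle and 1923 to 3824 in cuprizone BTKi. The naive sums did not overlap, and the 2 states had medians of opposite sign. Without naive vehicle library 2 and naive BTKi library 1 the averaged myelin median was -0.019, with 15 of 24 genes below 0 against 21. Over all tested genes 8509 of 15216 were below 0 in that fit, against 9305. The 8 striatal genes had medians of -0.48 in naive and 0.136 in cuprizone mice, and the 10 choroid plexus genes -0.483 and 0.56, with none called in either list. The cuprizone medians were also taken without the 3 cuprizone vehicle libraries low in choroid plexus RNA. They were then -0.371 for choroid plexus and -0.0556 for striatum, but still positive for myelin, at 0.168. The averaged choroid plexus median went from 0.056 to -0.418, with all 10 genes below 0 (all genes in that fit: 9626 of 15216). The averaged striatal median went from -0.185 to -0.277. As the 3 libraries were chosen by their low choroid plexus sum, a fall of that list's median was fixed by the choice. Without naive vehicle library 2 and naive BTKi library 1 the averaged striatal median was -0.115. The lists of 14 homeostatic microglial genes (median -0.0026), 12 astrocyte genes (0.0221) and 14 general neuronal genes (0.00168) held no called gene. Of 7 B cell, 7 T and NK cell and 6 neutrophil markers, 5, 5 and 6 had a mean under 0.5 FPKM.

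No gene of the inflammatory lists was called. All 19 interferon response genes were below 0, against 9305 of 15216 genes tested, 5 of them with an unadjusted p under 0.05, and the median was -0.2. Without the 3 cuprizone vehicle libraries low in choroid plexus RNA, 12 of the 19 had such a p (median -0.28), and without naive vehicle library 2 and naive BTKi library 1 it was 3 of them. The median was -0.374 for the cuprizone comparison and -0.0233 for the naive one, so the average rests on cuprizone tissue. Ifit1, for example, had -0.61 in cuprizone and 0.03 in naive mice, at 4.64 ± 1.36 against 2.82 ± 0.576 FPKM (SD, n = 8 each) and 1.03 ± 0.238 against 1.06 ± 0.207 (n = 4 each). All 12 MHC class I and II genes were below 0 as well (11 of 12 under each of the other scalings), with a median of -0.0868 and none at an unadjusted p under 0.05. Without the 3 libraries low in choroid plexus RNA that median was -0.217, with 3 genes at such a p. Of 23 disease-associated microglial genes 20 were below 0, 2 of them at an unadjusted p under 0.05, with a median of -0.089. Without the same 3 libraries the median was -0.242, 22 were below 0, 5 had such a p and 1 was called. Over all tested genes 9626 were below 0 in that fit, 1607 of them had such a p and 37 were called lower. The 8 genes of inflammatory cytokines and NF-kappaB had a median of 0.00833, with 4 below 0 and, at an unadjusted p under 0.05, 1 lower and 1 higher. The interferon list was below 0 in all 19 genes under median ratio scaling (median -0.181) and quantile normalization (-0.165) too.

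No chaperone gene was called. Of 9 heat shock genes 1 was below 0 (all genes: 9305 of 15216), and 4 were higher at an unadjusted p under 0.05 (all genes: 555), with a median of 0.0612. Hspb1, a small heat shock protein, had 0.30 (limma adjusted p = 0.0691), with 0.27 in naive and 0.33 in cuprizone mice. Hspa1a, an inducible chaperone of the HSP70 family that has the near-identical copy Hspa1b, had 0.24 (adjusted p = 0.0728), with 0.45 in naive and 0.02 in cuprizone mice. Under both other scalings 2 of the 9 were called, and without naive vehicle library 2 and naive BTKi library 1 the number at an unadjusted p under 0.05 was 7. The 21 cholesterol synthesis genes had a median of -0.0411 and no call, with Lss, lanosterol synthase, at -0.16 (adjusted p = 0.0928), -0.18 in naive and -0.15 in cuprizone mice.

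**Figure D5:**
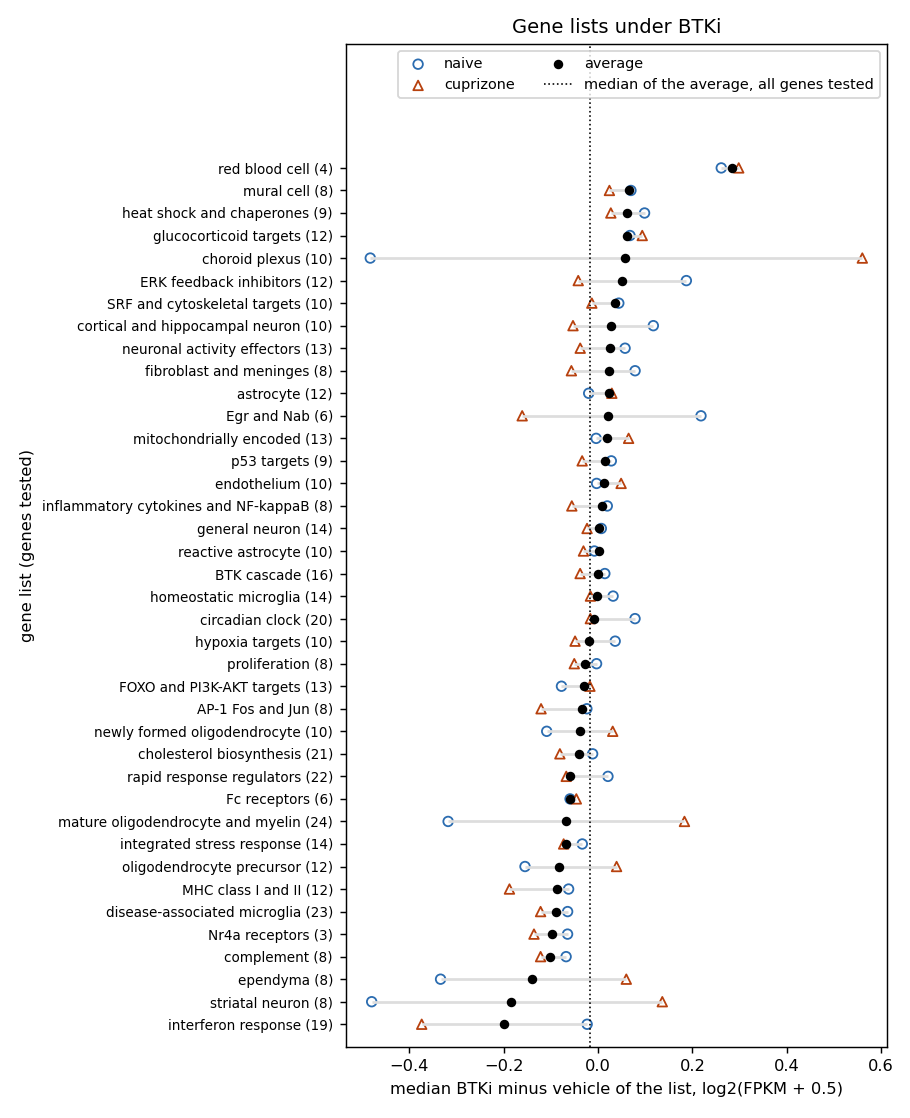
Median BTKi minus vehicle, as a log2(FPKM + 0.5) difference, of each gene list with at least 3 tested genes (number in brackets): black, average; blue circles, naive; orange triangles, cuprizone; dotted line, median of the average over all 15216 genes. Lists of myelin, striatum and choroid plexus have medians on opposite sides of 0 in the 2 states. For striatum and choroid plexus this ends without the 3 cuprizone vehicle libraries low in choroid plexus RNA, which were chosen by the choroid plexus list itself. The interferon response has the lowest average, -0.2.

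Leaving out single libraries showed which genes rest on few of them. In all 24 fits without 1 library, and under all 11 other settings tried, 13 genes were called: Btg2, Ier2, Npas4, 1700016P03Rik, Hs3st1, Hddc3, Ankrd34c, Tob1, Nostrin, Zbtb16, Dio2, Nr4a1 and Junb. All but Nr4a1 and Junb also kept an unadjusted p under 0.05 in both states in each of the 24 fits. The number of called genes was less firm, at 19 without naive BTKi library 3, 23 without naive BTKi library 4, 35 without naive vehicle library 2, 93 without cuprizone vehicle library 8 and 104 without cuprizone BTKi library 4. Without the 3 cuprizone vehicle libraries low in choroid plexus RNA it was 48, and without naive vehicle library 2 and naive BTKi library 1 it was 36.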

How the data were processed

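Libraries were made from polyadenylated RNA with strand kept, per the labels' protocols. The authors deposited 1 table of FPKM for 54446 Ensembl gene IDs in 24 libraries, with aligner, counter and build not given in the sources used here. Since FPKM is a share of all fragments, the value of 1 gene moves when others do, and no count test was run. Symbols were found for 54409 IDs, and 53229 matched GENCODE M21 (GRCm38) with their version. Coordinates come from that annotation, promoters and miRNAs from RefSeq (GRCm38.p6).

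Genes with a mean of at least 0.5 FPKM were fitted on log2(FPKM + 0.5) by limma 3.58.1 in R 4.3.3 (trended eBayes, 4 groups, no covariate), with Benjamini-Hochberg adjustment over all 15216 genes in each contrast. Fold changes on this scale are understated in low genes. The named genes are the 15 lower and 10 higher with the smallest p, plus called or described members of the lists; Wnt9a, Trim45, Mterf1b, Adgrl4, Sox18 and the other shared lower genes listed together were added after their values were seen. The genes, lists and tests were chosen with earlier results of these data known. Replicates of a group differed by a log2 spread of 0.123 to 0.222 over 68 pairs, and none was a duplicate. The fit was tested on simulated data. Other steps used pandas 2.3.3, numpy 2.4.6 and matplotlib 3.10.9 (Python 3.11.15).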

Additional observations from a re-analysis of the deposited data

Results flagged for a closer look

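The BTKi effect differed between the states, by the test of the difference itself, in 5 called genes. As cuprizone minus naive on the log2 scale the difference was 0.7163 in Btg2, -0.8954 in Nr4a1, -0.6955 in Junb, -0.3878 in Sntb2 and -1.0349 in Arc. Btg2 and Sntb2 had the larger effect in naive mice, the other 3 in cuprizone mice.

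Among 124 groups of values examined, 5 held a library far from the rest of its group; chance gives about 1 in 20 groups. Naive BTKi library 1 had 63.184 FPKM of Nr4a1, 21.963 FPKM of Spns2 and a total of 496350 FPKM, apart from the other 3 libraries of its group in each case. Cuprizone BTKi library 3 had 0.087267% of its FPKM in haemoglobin genes, and cuprizone BTKi library 5 an implied depth of 26.467 in units of 1000000 fragments, the lowest of all libraries.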

How the results depend on the processing

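The average gave 81 calls under median ratio scaling, 197 with array weights and 27 with the replicate block, against 53. Without a filter on low values the cuprizone count was 16 (27 as reported) and the naive count 21 (33). Array weights gave 145 naive calls and 119 shared genes (38), while the replicate block gave 14 naive calls, 8 for the difference (19) and 21 shared genes. Replicate numbers are shared between the groups, but same-number libraries correlated from -0.274 to 0.324, with 3 of 12 pairs over 0.1 and 3 best with their own number, so they were not treated as pairs. Of the alternatives added after seeing the data, leaving out the 3 libraries low in choroid plexus RNA gave 11 cuprizone, 19 naive and 7 difference calls. Leaving out naive vehicle library 2 and naive BTKi library 1 gave 10 naive calls, 6 for the difference and 24 shared genes. Leaving out single libraries gave 19 to 104 for the average, 14 to 34 in cuprizone, 7 to 41 in naive, 8 to 23 for the difference and 14 to 74 shared genes. Each of the 53 genes was also read in the 11 other settings and in its single-library fit with the highest adjusted p. Of these gene results 478 kept the call, 158 lost it and 0 reversed the sign. The causes were not tested. With 4 naive libraries a group, the naive libraries set the precision of the average. Fragment counting limits genes near 0.5 FPKM most.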

Other observations

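Zinc finger genes were examined after their number among the called genes was noticed. A symbol of Zfp, Zkscan or Zscan followed by a number alone was held by 349 genes. Of these, 255 were below 0 in the averaged effect (all genes: 9305 of 15216). The 4 called lower were Zfp810, Zfp446, Zkscan2 and Zkscan7 (all genes: 36 called lower). Zfp518a, also called lower, has a letter after its number and is not counted. At an unadjusted p under 0.05, 69 were lower and 5 higher, where all tested genes had 1390 and 555, and the median was -0.0485. Over all genes at 1 to 2 FPKM the median was -0.048, with 70% below 0. At 2 to 5 FPKM it was -0.0366, with 67.5% below 0. The list was not compared with genes of matched level. The counts moved with the scaling. Median ratio scaling gave 43 lower and 13 higher (all genes: 913 and 1046). It gave 219 below 0 and 4 called lower (all genes: 7454 and 36). Quantile normalization gave 26 lower and 14 higher (all genes: 764 and 992). There 199 were below 0 and 1 was called lower (all genes: 7261 and 18). Without naive vehicle library 2 and naive BTKi library 1 it was 45 lower and 9 higher (all genes: 1007 and 638). In that fit 2 were called lower (all genes: 22). Fewer genes were detected under BTKi, and the part of that in these counts was not tested.

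Of 13 FOXO and PI3K-AKT target genes none was called. Arrdc3 had -0.27 (limma adjusted p = 0.0532), with -0.55 in naive and 0.01 in cuprizone mice, and Cited2 had -0.21 (adjusted p = 0.06), with -0.31 and -0.12. Tagln, a marker of smooth muscle, had 0.55 in naive and -0.01 in cuprizone mice.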
